A study of Homo sapiens with 6 samples.

Results

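The regions described here are the peaks that the DHX9-mAb antibody gave and that had no partner among the DHX9-Rb peaks. A peak was counted as partnerless when it overlapped no DHX9-Rb peak by 1 nt or more on the same chromosome and strand. There were 820 such peaks among the 6831 of the DHX9-mAb list, and the other 6011 had a partner. The overlap of the lists chose these peaks, so their number is a description and carries no test. They were thus selected on the called positions in both lists. Their share of the DHX9-mAb peaks was 12.0%, with a 95% Wilson interval of 11.3 to 12.8. The reverse share was far larger, since 15443 of 21618 DHX9-Rb peaks (71.4%) overlapped no DHX9-mAb peak.

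The peaks come from HEK293, a long-established cell line of human embryonic kidney origin, whose cells had been irradiated with ultraviolet light. RNA bound to DHX9 was recovered by FLASH with DHX9-mAb, from Santa Cruz, or with DHX9-Rb, from Abcam, and a control used the immunoglobulin IgG-Rb. Each had 2 biological replicates, and the labels name no other treatment or genotype. Each list of peaks stands for both replicates of its antibody, which cannot be separated, and no IgG-Rb values were used here. The lists hold no expression values, so the cell type could not be checked against markers. They give positions and strands in hg19 with no height or depth, so a partnerless peak is one with no called DHX9-Rb region and not one shown to lack DHX9-Rb reads.

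DHX9, or RNA helicase A, is a mostly nuclear enzyme that opens double-stranded RNA and RNA paired with DNA. It is known to bind introns and untranslated regions in which neighbouring Alu elements, short repeats found throughout the human genome, lie in opposite orientations and can fold back on each other. FLASH is a cross-linking and immunoprecipitation method: ultraviolet light joins protein to the RNA that it touches, the protein is captured with an antibody, and the attached fragments are sequenced. A peak is a stretch of the genome where such fragments pile up on 1 strand.

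Most partnerless peaks lay close to a DHX9-Rb peak. Distance was counted from the nearest ends on the same strand, so that directly abutting peaks are 1 nt apart. Each range given excludes its lower limit and includes its upper one. On this scale 175 peaks (21.3%, Wilson 18.7 to 24.3) lay within 100 nt of a DHX9-Rb peak. A further 346 (42.2%, 38.9 to 45.6) lay at 100 to 1000 nt, 121 (14.8%, 12.5 to 17.3) at 1000 to 10000 nt, and 178 (21.7%, 19.0 to 24.7) farther than 10000 nt. Together 521 of the 820 (63.5%, 60.2 to 66.8) had a DHX9-Rb peak within 1000 nt. The median distance was 455 nt, with quartiles at 124.5 and 5329.75 nt. The 178 far peaks make up 2.61% of the whole DHX9-mAb list (2.25 to 3.01).

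**Figure D1:**
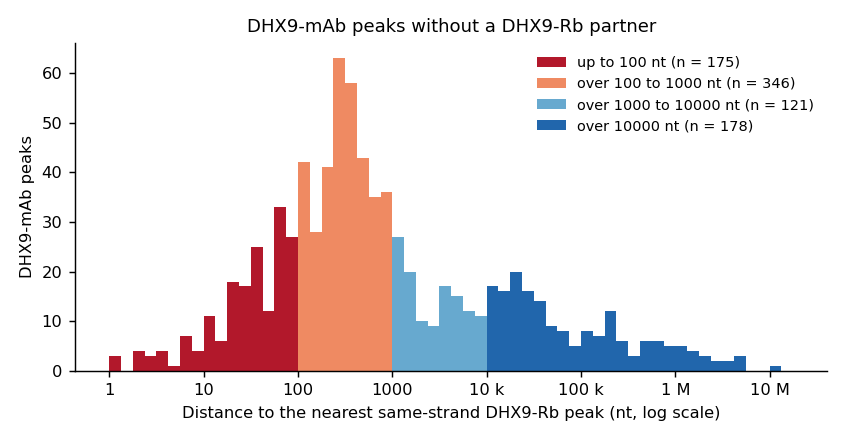
Number of partnerless DHX9-mAb peaks by distance to the nearest same-strand DHX9-Rb peak (nt, log scale), coloured by distance class. The 346 peaks at 100 to 1000 nt form the main mode, and a broad tail of 178 peaks lies beyond 10000 nt.

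At short range the number of peaks per 100 nt was highest in the first step and lowest beyond 400 nt. After the 175 peaks within 100 nt there were 83 peaks at 100 to 200 nt, 77 at 200 to 300 nt and 65 at 300 to 400 nt, but 24 at 400 to 500 nt and 97 over the whole range from 500 to 1000 nt. Thus 400 of the 820 (48.8%, Wilson 45.4 to 52.2) lay within 400 nt of a DHX9-Rb peak. Partnered DHX9-mAb peaks were closer to their next DHX9-Rb peak, meaning the nearest one that they did not overlap, and 73.9% of them (72.7 to 75.0) had it within 400 nt. Their numbers also fell between these bins, from 942 at 200 to 300 nt to 553 at 300 to 400 nt and 318 at 400 to 500 nt.

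Near the rule's own threshold the lists graded into each other. Of the partnerless peaks, 3 abutted a DHX9-Rb peak, 30 lay within 10 nt and 48 within 20 nt. On the other side of the threshold, 7 partnered peaks shared 1 nt with DHX9-Rb, 42 shared at most 10 nt and 83 at most 20 nt. The abutting peaks were on the minus strand at chr10:121333334-121333497, chr12:6656052-6656189 and chr17:80067114-80067349, with widths of 164, 138 and 236 nt. The next nearest, both 2 nt away, were chr1:160269213-160269417 on the minus strand and chr10:94391288-94391572 on the plus strand. Just inside the partnered set, with 1 nt shared, were the plus-strand peaks chr12:117287958-117288100, chr19:34859883-34860098 and chr4:17821552-17821703. The minus-strand peaks chr20:50695221-50695424 and chr5:37306071-37306337 also shared 1 nt. These peaks were 143 to 267 nt wide.

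Many of the nearest peaks sat in a gap between DHX9-Rb peaks. Among the 175 peaks within 100 nt, 120 (68.6%, Wilson 61.4 to 75.0) had a DHX9-Rb peak within 1000 nt on both sides, and 32 had one within 100 nt on both sides. For the 120, the gap between the flanking DHX9-Rb peaks had a median of 479 nt (quartiles 346 and 647.5), and the DHX9-mAb peak filled a median of 38.8% of it. One case, picked after its values were seen, was chr4:458890-459022 on the minus strand. This peak of 133 nt lay 5 nt from one DHX9-Rb peak and 4 nt from the other, in a gap of 140 nt. At 100 to 1000 nt, 128 of 346 peaks (37.0%, 32.1 to 42.2) were flanked within 1000 nt on both sides, in gaps with a median of 891.5 nt. At 1000 to 10000 nt, 26 of 121 (21.5%, 15.1 to 29.6) were flanked on both sides within 10000 nt.

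The nearest DHX9-Rb peak lay on either side of the partnerless peak about equally often. Read along the RNA, it was upstream in 402 of 820 cases (49.0%, Wilson 45.6 to 52.4). By class the upstream share was 50.9% within 100 nt, 47.7% at 100 to 1000 nt, 48.8% at 1000 to 10000 nt and 50% beyond 10000 nt, and each interval held 50%. A preferred side was not detectable at this number of peaks.

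Some of the DHX9-Rb neighbours had been marked by DHX9-mAb elsewhere along their length, most often at short distance. The nearest DHX9-Rb peak itself overlapped a DHX9-mAb peak for 73 of 175 partnerless peaks within 100 nt (41.7%, Wilson 34.7 to 49.1). The share was 31.5% (26.8 to 36.6) at 100 to 1000 nt, 18.2% (12.3 to 26.0) at 1000 to 10000 nt and 15.7% (11.1 to 21.8) beyond 10000 nt. Over all partnerless peaks it was 232 of 820 (28.3%, 25.3 to 31.5), near the 28.6% (28.0 to 29.2) of the DHX9-Rb list as a whole. These neighbours were 785 different DHX9-Rb peaks, of which 32 were the nearest one for several partnerless peaks. Their median width was 199 nt, 201.5 nt, 174 nt and 185 nt in order of distance class, against 201 nt for all DHX9-Rb peaks.

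Partnerless peaks were narrow in every distance class. The median width was 167 nt within 100 nt (95% interval of the median from order statistics 159 to 179), 170 nt at 100 to 1000 nt (162 to 183), 158 nt at 1000 to 10000 nt (147 to 180) and 154 nt beyond 10000 nt (141 to 164). The neighbouring intervals overlapped. No interval of a difference was computed, so no order of the classes is claimed. The partnered peaks had a median of 196 nt. A narrow region has less room to overlap another, so width is tied to the rule and was not tested. Width ranged from 54 to 566 nt among partnerless peaks and from 22 to 810 nt among partnered ones, so neither extreme of the list was partnerless.

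**Figure D2:**
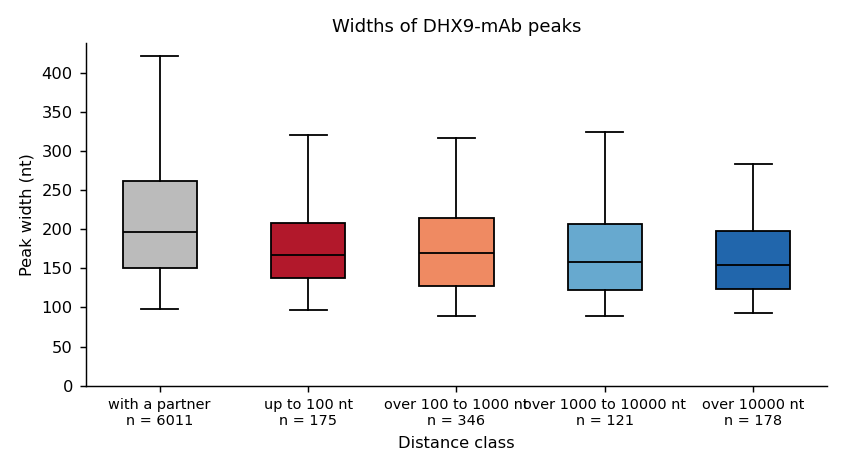
Width of DHX9-mAb peaks (nt) for partnered peaks and for the 4 distance classes of partnerless peaks; the line is the median, the box spans the quartiles and the whiskers reach the 5th and 95th percentiles. Medians of 154 to 170 nt in the partnerless classes lie below the 196 nt of partnered peaks, and the boxes overlap.

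Read the other way, the partnerless share fell with width up to 400 nt and did not reach 0 in wide peaks. It was 19.3% (Wilson 15.8 to 23.4) of the 409 DHX9-mAb peaks up to 100 nt wide, 17.8% (16.0 to 19.9) of those of 100 to 150 nt and 12.7% (11.2 to 14.2) of those of 150 to 200 nt. It was 9.49% (8.31 to 10.8) at 200 to 300 nt, 4.43% (3.08 to 6.33) at 300 to 400 nt and 5.39% (3.59 to 8.03) above 400 nt. Of the 22 wide partnerless peaks above 400 nt, 5 lay over 10000 nt from DHX9-Rb. These 5 were chr19:21368426-21368920 (495 nt wide, plus strand), chr2:132270999-132271469 (471 nt, plus), chr11:47659529-47659979 (451 nt, minus), chr2:54078578-54079027 (450 nt, minus) and chr16:70440260-70440708 (449 nt, minus). Their distances were 37243, 1149100, 79628, 115143 and 16558 nt. Wide peaks close to DHX9-Rb included chr9:134071227-134071709 (483 nt wide, 69 nt away), chr3:13452253-13452733 (481 nt, 64 nt away) and chr16:74622656-74623135 (480 nt, 6 nt away). At 100 to 1000 nt they included chr16:69712923-69713418 (496 nt wide, 140 nt away) and chr7:150726247-150726737 (491 nt, 115 nt away). At 1000 to 10000 nt the widest were chr15:64775599-64776085 (487 nt wide, 1047 nt away) and chr4:39873807-39874281 (475 nt, 5482 nt away). Wide partnerless peaks thus occurred at every distance.

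The partnerless peaks were split evenly between the strands. The plus strand held 414 of 820 (50.5%, Wilson 47.1 to 53.9), against 52.4% (51.2 to 53.7) of the partnered peaks. By class it held 52.0% (44.6 to 59.3), 50% (44.8 to 55.2), 52.1% (43.2 to 60.8) and 48.9% (41.6 to 56.2) from near to far. These intervals overlap each other and that of the partnered peaks.

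Few partnerless peaks faced a DHX9-Rb peak on the opposite strand. There were 5 such peaks (0.61%, Wilson 0.261 to 1.42), of which 2 lay within 100 nt and 3 at 100 to 1000 nt of a same-strand DHX9-Rb peak. Among partnered peaks 72 of 6011 (1.2%, 0.952 to 1.51) faced one, and the intervals overlap. The 5 were at chr1:16166896-16167060 and chr1:16172418-16172560 on the plus strand and at 3 mitochondrial places on the minus strand. None of the 178 far peaks faced a DHX9-Rb peak, which allows a share of up to 2.11%, and 4 of them had one within 10000 nt on the other strand.

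Partnerless peaks were found on 24 of the 25 sequences with a DHX9-mAb peak. Chromosomes 1, 12, 17 and 19 had the most, with 125, 69, 79 and 75, together 42.4% of the 820 (Wilson 39.1 to 45.8), against 46.7% of the partnered peaks (45.4 to 47.9). The share of a chromosome's DHX9-mAb peaks that were partnerless was highest on chromosomes 13 (6 of 25, 24.0%, 11.5 to 43.4) and 18 (7 of 31, 22.6%, 11.4 to 39.8), where numbers were small. For 20 of the 24 sequences with several peaks, the interval held the 12.0% of the whole list. It lay above on chromosome 6 (41 of 204, 20.1%, 15.2 to 26.1) and chromosome 2 (27 of 154, 17.5%, 12.3 to 24.3). It lay below on chromosome 19 (75 of 1011, 7.42%, 5.96 to 9.20) and chromosome 21 (8 of 154, 5.19%, 2.66 to 9.92). The intervals treat grouped peaks as separate and are not adjusted for the 24 looks, so they are too narrow for a claim about 1 chromosome.

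**Figure D3:**
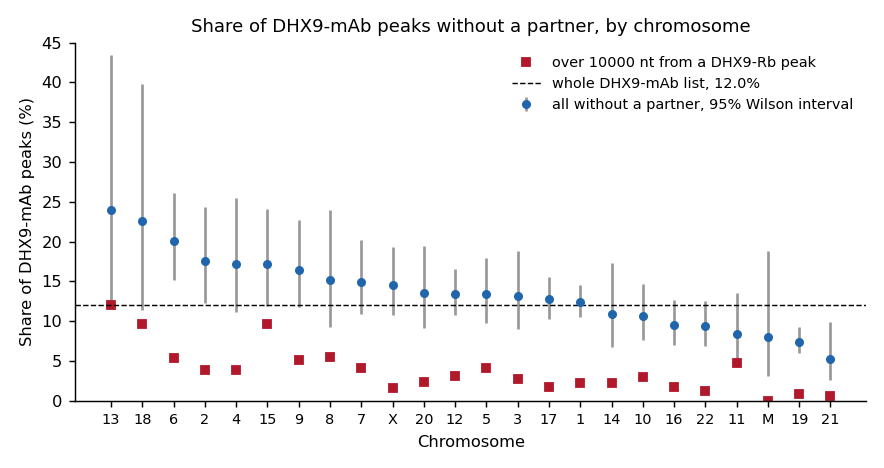
Share of each chromosome's DHX9-mAb peaks (%) that had no DHX9-Rb partner, with 95% Wilson intervals (circles), and share lying over 10000 nt from a DHX9-Rb peak (squares). Chromosomes run from 24.0% on chromosome 13 to 5.19% on chromosome 21, around the 12.0% of the whole list (dashed line).

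The split by distance also differed among chromosomes. On chromosome 15, 14 of 25 partnerless peaks (56.0%, Wilson 37.1 to 73.3) lay over 10000 nt from DHX9-Rb, and on chromosome 11, 8 of 14 (57.1%, 32.6 to 78.6), against 21.7% in the whole set. On chromosome 19 it was 8 of 75 (10.7%, 5.50 to 19.7) and on chromosome 17 it was 11 of 79 (13.9%, 7.96 to 23.2). The interval of chromosome 17 holds the 21.7% of the whole set. These intervals too are not adjusted for the number of chromosomes looked at, and some counts were small. Chromosome 19 had 49.4 DHX9-Rb peaks per Mb, chromosome 17 had 27.9, and chromosomes 15 and 11 had 6.44 and 4.48. Sparser chromosomes varied in the share over 10000 nt. It was 22.2% on chromosome 4 (4 of 18, 1.84 DHX9-Rb peaks per Mb) and on chromosome 2 (6 of 27, 2.48 per Mb). On chromosome 18 it was 42.9% (3 of 7, 1.45 per Mb). A relation of density to this split was not tested. Over the 23 nuclear chromosomes with DHX9-mAb peaks, the partnerless share and the density of DHX9-Rb peaks had a Spearman's rho of -0.75 (Pearson's r -0.55). Dense DHX9-Rb peaks leave less room for a DHX9-mAb peak to miss them, so the 2 measures are linked by the rule, and no p-value is given.

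A gradient of the same direction was seen on the scale of single loci, where it is partly set by the rule. The count of DHX9-Rb neighbours used here includes the partner itself, so each partnered peak has at least 1. The 73 DHX9-mAb peaks with none were therefore all partnerless. Of the DHX9-mAb peaks with 1 to 4 DHX9-Rb peaks within 100 kb on their strand, 183 of 881 were partnerless (20.8%, Wilson 18.2 to 23.6). The share was 15.9% (13.7 to 18.4) with 5 to 9 neighbours, 11.4% (9.89 to 13.2) with 10 to 19, 7.81% (6.78 to 8.98) with 20 to 49 and 6.06% (4.85 to 7.54) with 50 or more. Crowding alone raises overlap and the partner adds to the count, and the part of neither was tested. Even in the densest surroundings 74 of 1222 DHX9-mAb peaks missed every DHX9-Rb peak, and 29 of those 74 lay within 100 nt of one.

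Partnerless peaks stood apart from other DHX9-mAb peaks more often than partnered ones did. When DHX9-mAb peaks on a strand were linked over gaps of up to 1000 nt, 543 of the 820 (66.2%, Wilson 62.9 to 69.4) were alone, against 1942 of 6011 partnered peaks (32.3%, 31.1 to 33.5). The lone share was 38.9% (31.9 to 46.2) within 100 nt, 53.2% (47.9 to 58.4) at 100 to 1000 nt, 96.7% (91.8 to 98.7) at 1000 to 10000 nt and 97.8% (94.4 to 99.1) beyond 10000 nt. Since 6011 of the 6831 DHX9-mAb peaks overlap a DHX9-Rb peak, a peak far from the DHX9-Rb list is bound to be far from most of its own list too. The peaks within 100 nt had a median distance of 321 nt to the next DHX9-mAb peak, close to the 371.5 nt of partnered peaks.

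**Figure D4:**
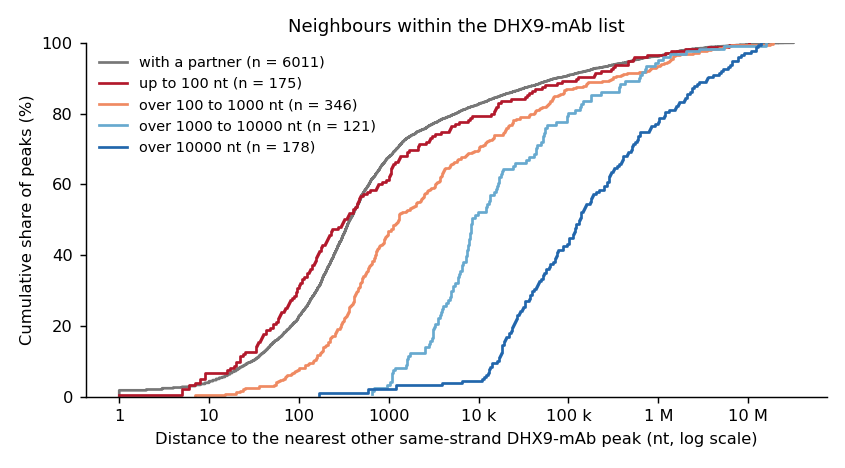
Cumulative share of DHX9-mAb peaks (%) by distance to the nearest other DHX9-mAb peak on the strand (nt, log scale; overlapping peaks are drawn at 1 nt), for partnered peaks and the 4 distance classes. Peaks within 100 nt of DHX9-Rb follow the partnered peaks, with medians of 321 and 371.5 nt, and the far class has a median of 132388.5 nt.

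Within linked groups, partnerless peaks were found at the ends more often than inside. Of the DHX9-mAb peaks at the upstream end of a group, 92 of 1145 were partnerless (8.03%, Wilson 6.6 to 9.75), and at the downstream end 96 of 1145 (8.38%, 6.91 to 10.1). Inside a group it was 89 of 2056 (4.33%, 3.53 to 5.30). The intervals of both ends overlap. Groups of 2 have ends but no inside, and 119 of their 1138 peaks were partnerless (10.5%, 8.81 to 12.4). The share was 6.38% (5.04 to 8.03) in groups of 3 or 4, 2.97% (2.16 to 4.06) in groups of 5 to 9 and 5.94% (4.59 to 7.65) in groups of 10 or more. Place and group size are thus not separated here. Without chromosome X, left out after the data were seen, groups of 10 or more had 40 of 866 (4.62%, 3.41 to 6.23). That interval overlaps the one of groups of 5 to 9. Of the 55 partnerless peaks in groups of 10 or more, 7 came from 1 group on chromosome 1. A place inside a group bears on the chance of overlap, and no test was run. Of the partnerless peaks within 100 nt of DHX9-Rb, 24 were at an upstream end and 38 at a downstream end, while at 100 to 1000 nt there were 65 and 53.

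Few partnerless peaks had another one close by, but few had any close DHX9-mAb peak. Any other DHX9-mAb peak lay within 1000 nt on the strand for 277 of 820 (33.8%, Wilson 30.6 to 37.1). Only 12.0% of the list was partnerless, and whether partnerless peaks sought or avoided each other was not tested. Another partnerless peak was found within 1000 nt on the strand for 47 of 820 (5.73%, Wilson 4.34 to 7.54) and within 10000 nt for 146 (17.8%, 15.3 to 20.6). Runs were counted where consecutive DHX9-mAb peaks on a strand were all partnerless and each lay within 1000 nt of the next. By this count 780 stood singly, and the rest formed 15 runs of 2, 2 runs of 3 and 1 run of 4. One run of 3, picked after its values were seen, lay on the minus strand of chromosome 1 from 23620368 to 23621346, with widths of 233, 233 and 162 nt and distances of 296 to 802 nt to DHX9-Rb. Linked groups made of partnerless peaks alone numbered 6 and held 2 peaks each. In windows of 100 kb the 820 peaks were spread over 658 windows: 543 held 1, 91 held 2, 16 held 3 and 8 held 4 or more. A DHX9-mAb peak of either kind was present in 1936 windows. In 235 of these each DHX9-mAb peak was partnerless, and the 235 held at most 2 peaks each.

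Windows were ranked by their number of partnerless peaks, with ties taken in order of chromosome and position. Of the first 10, 8 are described. On chromosome 1 from 23618464 to 23627964, on the minus strand, 7 of the window's 25 DHX9-mAb peaks were partnerless, beside 21 DHX9-Rb peaks. These 7 were 162 to 254 nt wide and lay 128 to 802 nt from DHX9-Rb, and for 6 of them the nearest DHX9-Rb peak overlapped another DHX9-mAb peak. All 7 belonged to 1 linked group of 16 DHX9-mAb peaks. The peaks chr1:23620933-23621165 and chr1:23621185-23621346 lay 20 nt from each other and 802 and 621 nt from DHX9-Rb. The plus-strand window of chromosome 1 with peaks from 204505471 to 204526475 had 5 partnerless peaks of 19, with 14 DHX9-Rb peaks. Those 5 were 115 to 190 nt wide, lay 41 to 479 nt from DHX9-Rb, and each had a nearest DHX9-Rb peak that overlapped another DHX9-mAb peak.

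**Figure D5:**
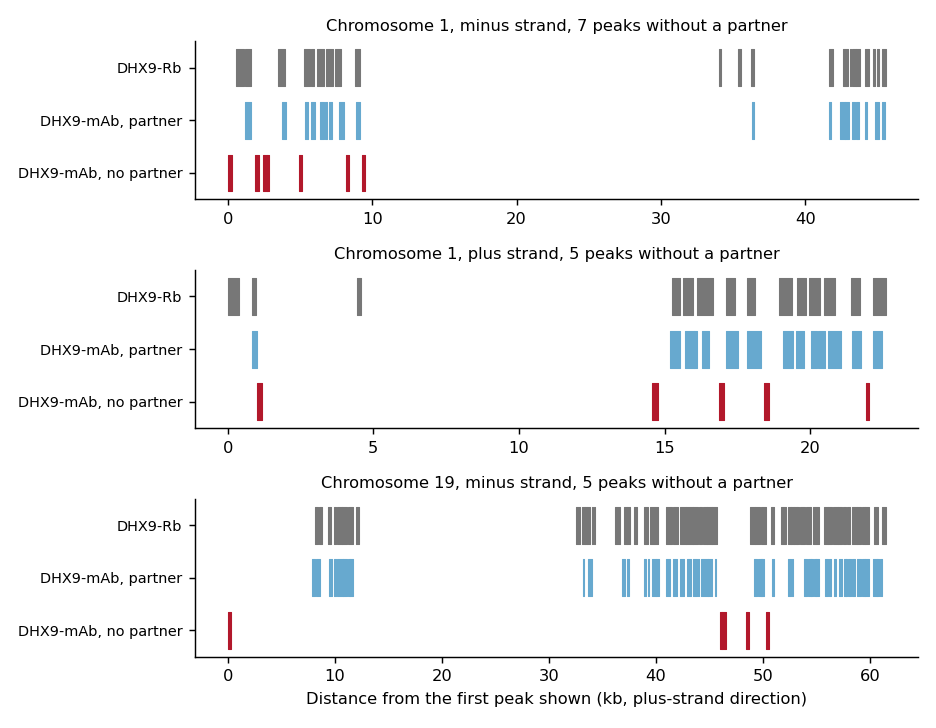
Peaks of the 3 nuclear windows described first, drawn to scale in kb from the first peak shown; rows are DHX9-Rb peaks, DHX9-mAb peaks with a partner and DHX9-mAb peaks without one. The 7, 5 and 5 partnerless peaks lie 128 to 802, 41 to 479 and 21 to 7868 nt from the nearest same-strand DHX9-Rb peak.

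On chromosome 19 several windows ranked high by number, a ranking that favours windows crowded with DHX9-mAb peaks. Their partnerless shares, in the order given below, were 9.09%, 23.8% and 11.8%, against 12.0% of the whole list. From 39404739 to 39455250, on the minus strand, 5 of 55 DHX9-mAb peaks were partnerless. One of these, chr19:39404739-39404990, stood alone 7868 nt from DHX9-Rb, and the other 4 lay 21 to 481 nt away. Each of the 5 had a nearest DHX9-Rb peak that overlapped a DHX9-mAb peak. In the window from 47604698 to 47700108, 5 of 21 were partnerless, 4 on the plus and 1 on the minus strand, and in none of the 5 did the nearest DHX9-Rb peak overlap a DHX9-mAb peak. In the window from 40805981 to 40864597, 4 of 34 were partnerless, 2 on each strand, at 103 to 620 nt from DHX9-Rb, and again no nearest DHX9-Rb peak overlapped a DHX9-mAb peak. The windows thus differed in whether the DHX9-Rb neighbours were themselves shared by the antibodies.

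A pair of further windows on chromosome 1 had 3 each, and were taken by position from the 16 windows tied at that number. In the first, the 3 partnerless peaks lay from 16166896 to 16189006 on the plus strand, at 60, 238 and 63 nt from DHX9-Rb. Over both strands, its 100 kb held 35 DHX9-mAb and 84 DHX9-Rb peaks. In the second, the 3 lay from 31419021 to 31487995 on the minus strand, at 1777, 16280 and 10754 nt, and each stood alone. This window held 6 DHX9-mAb and 10 DHX9-Rb peaks over both strands. The first window had partnerless peaks inside a crowd and the second had them scattered.

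On the mitochondrial chromosome 4 of 50 DHX9-mAb peaks were partnerless (8%, Wilson 3.15 to 18.8), and all 4 lay on the minus strand. They were 4 of 19 minus-strand peaks and 0 of 31 plus-strand peaks, which allows up to 11.0% on the plus strand (upper Wilson bound). Most mitochondrial genes are annotated on the plus strand of the reference, and ND6, a subunit of respiratory complex I, is the protein-coding gene of the minus strand. The first, from 937 to 1059, was 123 nt wide and lay 519 nt from DHX9-Rb. The second, from 11737 to 12139, was 403 nt wide and lay between DHX9-Rb peaks 130 and 72 nt away. The next, from 13213 to 13360, was 148 nt wide and had DHX9-Rb peaks 199 and 248 nt away. The last, from 16231 to 16565, was 335 nt wide and lay 250 nt from the nearest. These middle 2 flank the same DHX9-Rb peak of 804 nt, so they share a neighbour.

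The 178 peaks over 10000 nt from DHX9-Rb were single and scattered. They lay in 173 windows of 100 kb, and 172 had no other far peak within 10000 nt. The exceptions were 3 pairs, named because they are so few and after their values were seen: chromosome 15 from 71047504 to 71048396 on the minus strand, chromosome 19 from 10524605 to 10526224 on the minus strand and chromosome 7 from 40089287 to 40089817 on the plus strand. Their median distance to DHX9-Rb was 50272.5 nt (quartiles 19985.75 and 246963). On their strand 73 of them (41.0%, Wilson 34.0 to 48.4) had no DHX9-Rb peak within 100 kb, and 56 (31.5%, 25.1 to 38.6) had none on either strand. A DHX9-Rb peak on some strand was present in the 100 kb windows of 91 of the 178. The isolated peaks were therefore of mixed surroundings, from marked regions to long stretches without a peak.

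The farthest peak was chr12:83167459-83167608 on the plus strand, 150 nt wide and 10608996 nt from the nearest same-strand DHX9-Rb peak. It was followed by chr6:3399841-3399966 on the minus strand (4694368 nt), chr2:135683994-135684116 on the plus strand (4562095 nt) and chr20:17943409-17943649 on the minus strand (4231451 nt). The one on chromosome 20 had a DHX9-Rb peak on the opposite strand 11234 nt away. Then came chr18:33746424-33746670 on the plus strand (4044150 nt), chr9:116279102-116279227 on the plus strand (3461247 nt) and chr5:115175868-115175989 on the minus strand (2926167 nt). The peak chr12:46331938-46332114 on the minus strand (2407883 nt) had an opposite-strand DHX9-Rb peak 36371 nt away. The last of the 10 were a pair on the minus strand of chromosome 5, chr5:14847903-14848100 and chr5:14866095-14866303, with 17995 nt between them and 2075232 and 2057029 nt to DHX9-Rb. These 10 were 122 to 247 nt wide, and apart from the chromosome 5 pair each had no other DHX9-mAb peak within 100 kb on its strand.

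Seen from the other list, DHX9-Rb peaks without a partner were more distant. Of these 15443 peaks, 6.01% (Wilson 5.65 to 6.40) lay within 100 nt of a DHX9-mAb peak and 34.5% (33.7 to 35.2) over 10000 nt, against 21.3% and 21.7% of the partnerless DHX9-mAb peaks. The DHX9-Rb list is the longer one, so a DHX9-mAb peak has more DHX9-Rb peaks to be near, and the 2 sets of distances are not on equal terms.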

How the data were processed

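The authors deposited 1 list of peak regions for each DHX9 antibody, giving the first and last base, counted from 1, and the strand. Reads were mapped with Bowtie2 2.2.6 to hg19, per the submitters' processing notes, and peaks were called with PEAKachu, per the files' second column. The version, control, threshold and treatment of replicates and repeats are not stated in any source at hand. Per the labels, the IgG-Rb and DHX9 pulldowns were pooled ahead of reverse transcription and separated afterwards by barcode. No depth or score per peak is known.

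From these positions, overlaps, distances and widths were computed with Python 3.11.15, pandas 2.3.3, NumPy 2.4.6 and SciPy 1.17.1, and plots with matplotlib 3.10.9. All 6831 distances were checked against bedtools 2.31.1 and were equal. On simulated data the distance class was recovered for 6831 of 6831 peaks. A peak was placed in a 100 kb window by its midpoint. Intervals are 95% Wilson intervals, or order-statistic intervals for medians, and cover counting error only. No hypothesis test was run, because both replicates are merged in each list and peaks are not replicates.

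Regions named are the 10 farthest peaks, the widest of each class, those nearest the threshold, the 10 windows with the most partnerless peaks, runs of 4 or more and the mitochondrial peaks, with ties broken by chromosome and start. A gap on chromosome 4, a run of 3 and 3 far pairs were added after their values were seen. The set, its distance classes and these rules were chosen with earlier results of these data known. Peaks of chromosome X count in every total, and their positions, which include 2 of the 10 windows and the run of 4, are not reported here. Gene context and sequences were not analysed here, since they need an hg19 annotation and genome.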

Additional observations from a re-analysis of the deposited data

How the results depend on the processing

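Each of 24 values was recomputed under its alternatives, 56 in all, and 46 stayed within the interval of the main value or, for counts, within 1.5 times of it. The number of partnerless peaks was 1494 when a partner had to cover at least 50% of the DHX9-mAb peak, and between 779 and 861 under the other alternatives. With distances between midpoints 0 peaks lay within 100 nt, because the width of the peaks is then part of the distance. With class limits of 50, 500 and 5000 nt the nearest class held 112 peaks and that from 500 to 5000 nt held 189. The share of partnerless peaks with another DHX9-mAb peak in reach was 26.1% at 500 nt and 55.1% at 10000 nt, and with another partnerless peak 3.17% and 17.8%. Windows with 3 or more partnerless peaks numbered 15 at 50 kb and 39 at 200 kb. The alternatives without chromosome X were chosen after seeing the data, and the partnerless share was then 11.9%. Medians of width by class, plus-strand shares and the shares of partnerless peaks on chromosomes 1, 6, 12, 17 and 19 stayed within their intervals. The partnerless share of each chromosome's DHX9-mAb peaks and its split by distance were not recomputed. No paired analysis was possible because each list merges both replicates of its antibody and no value per replicate was used. With no depth per peak, a missed call and a missing site cannot be told apart.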
